A study of Drosophila simulans x Drosophila sechellia and Drosophila simulans x Drosophila mauritiana and Drosophila mauritiana x Drosophila simulans with 63 samples.

Results

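The genes *bowl*, *drm*, *sob*, *ImpE2* and *CG15236* were followed through single embryos of 3 sister species of *Drosophila* and through their hybrids. They are 5 of the 10464 genes that had a row in all 3 deposited tables of allele-specific reads. *bowl*, *ImpE2* and *CG15236* were picked because, at late stage 5, the difference between their alleles within hybrids resembled the difference between the species in every cross. *drm* and *sob* were added as the paralogs of *bowl*. The rule held no numeric threshold. For the 3 picked genes the species difference, the allele difference, their likeness and the likeness of the allele difference between reciprocal crosses are therefore given as a description with no test, whereas *drm* and *sob*, which were not picked by their values, were tested in each comparison.

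The study compared hybrids of *D. simulans* (*sim*, a line with a white mutation), *D. sechellia* (*sec*, wild type) and *D. mauritiana* (*mau*, a line with a white mutation) with embryos of the same 3 species, 63 embryos in all. At late stage 5, when cells have formed but gastrulation has not begun, 6 F1 embryos were taken from each of 5 crosses, named with the mother first: *sim* x *mau*, *mau* x *sim*, *sim* x *sec*, *sec* x *mau* and *mau* x *sec*. At stage 2, when all transcripts come from the mother, 3 embryos per cross came from F1 hybrid mothers mated to males of the species of their own mother, such as (*sim* x *mau*) x *sim*. Each species gave 3 embryos at each stage. Hybrid stage 5 embryos were labelled 3 XX and 3 XY per cross, except *sim* x *mau* with 4 XX and 2 XY, and the sex of the species embryos was not labelled. Each embryo is 1 replicate. Each species is represented by 1 line, so a difference between species is a difference between these lines. The species reads with which variant sites were called came, according to the study's methods, from an earlier data set, and no source used here places the collection or sequencing of hybrid and species embryos together. A difference between hybrid and species embryos therefore cannot be told apart from a difference between collections.

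*bowl* (*brother of odd with entrails limited*), *drm* (*drumstick*) and *sob* (*sister of odd and bowl*) belong with *odd* (*odd-skipped*) to a family of zinc finger genes known for their roles in the patterning of the embryo and of the gut. In *D. melanogaster* the Lines protein binds Bowl and keeps it from accumulating, and Drumstick relieves Bowl of this hold by binding Lines. *ImpE2* (*Ecdysone-inducible gene E2*) encodes an extracellular protein first found as a transcript induced by the steroid hormone ecdysone in imaginal discs, the sheets of cells that form the adult body surface. *CG15236* carries only an annotation number, and no role is given here.

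In a hybrid nucleus both alleles meet the same regulatory proteins, so that a difference between alleles is commonly read as a difference in linked, *cis*-acting sequence, and a species difference that the alleles do not repeat as one in *trans*. The deposited values were reads that overlapped sites differing between the species, counted for each allele and scaled per library, and are called scaled reads below. The value is neither per gene length nor per total of reads, so levels were compared within a gene only. Each table holds 1 pair of species with its own scaling, and every test was made within 1 table. Unless another genome is named, values are from reads mapped to the *sim* genome for pairs with *sim*, and to the *sec* genome for *sec* with *mau*. Differences are given on the log2(scaled reads + 1) scale with their SE, were tested with limma among genes with a mean of at least 5 scaled reads, and were called at a Benjamini-Hochberg adjusted p under 0.05 over all those genes. A whole embryo was measured, so fewer expressing cells and less RNA per cell cannot be told apart.

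The libraries held 2146524 to 7044646 allele-assigned reads per embryo (median 3901731, over 81 combinations of embryo and table). The stage labels were checked against markers. The 12 early zygotic markers, among them *eve*, *ftz* and *Kr*, summed to 15775 to 20857 scaled reads in *sim* x *mau*, 17962 to 23281 in *mau* x *sim*, 13279 to 15919 in *sim* and 16086 to 17484 in *mau* embryos at stage 5, against 34.0 to 88.0 in the stage 2 embryos of that table. At stage 2 their sum was 11.3 to 64.5 in the *sim* and *sec* table and 18.8 to 122 in the *sec* and *mau* table. On average 11 of 12 were higher at stage 5 in the *sim* and *sec* table, and all 12 in the other tables. All 8 maternal markers measured, such as *bcd* and *osk*, were lower on average at stage 5. One library stood out for the genes described here: replicate 1 of the *sim* stage 5 embryos had the highest *bowl*, *drm*, *ImpE2* and *CG15236* of its group, and values without it are given where it decides a result.

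*drm*, *sob* and *bowl* lie near one another on chromosome arm 2L. In the *D. simulans* r2.02 assembly the exon listed for *drm* spans 2L:3399012-3399525 on the plus strand, that of *sob* 2L:3437473-3439379 on the minus strand and that of *bowl* 2L:3631865-3632027 on the plus strand. The exon starts of *drm* and *sob* are 38.5 kb apart, *odd* lies 27.2 kb beyond *sob*, and *bowl* starts 194 kb from *sob*. *ImpE2* was listed on 3L at 3407461-3408970 (minus strand) and *CG15236* on 2R at 3581170-3581486 (plus strand). All 5 genes are autosomal, so both sexes carry both alleles.

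How well the alleles could be told apart differed between the genes. Mapped to the *sim* genome, *bowl* had reads at 44 to 47 variant sites per stage 5 embryo in the *sim* and *mau* table and at 60 to 65 in the *sim* and *sec* table, but at only 17 to 22 sites when its reads were mapped to *sec*. *drm* had 16 to 19 sites mapped to *sim* and none mapped to *sec* or *mau*. Its allele values therefore exist under 1 mapping genome only, there are none for *sec* with *mau*, and a bias toward the mapped genome could not be looked for. *sob* had 8 to 25 sites, *ImpE2* 21 to 31 and *CG15236* 4 to 31, depending on the pair and the genome. Reads given to the wrong allele in embryos of a pure species were at most 2.73% of the *bowl* reads and 2.65% of the *drm* reads, but reached 9.34% for *CG15236* in *sim* embryos mapped to *mau* (95% interval, exact Clopper-Pearson, 6.95 to 12.2%).

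At stage 2 the 5 genes were close to absent. *CG15236* had at most 1 read over the stage 2 embryos of any table, and no member exceeded 1.12 scaled reads in any stage 2 embryo. In *sim* embryos of the *sim* and *mau* table no read of the *sim* allele fell on any of the 5 genes at stage 2. Taking 3 reads over these stage 2 embryos as the floor, *bowl* was at least 888-fold, *drm* 553-fold, *sob* 192-fold, *ImpE2* 661-fold and *CG15236* 402-fold higher at stage 5. In the *sim* and *sec* table *drm* had 0.95 scaled reads in *sim* stage 2 replicate 1. In *mau* embryos the bounds ran from 149-fold for *CG15236* to 835-fold for *ImpE2*. In *sec* embryos they were 233-fold for *sob*, 471-fold for *ImpE2* and 26.4-fold for *CG15236*, while *bowl* had 1 read at stage 2 and a ratio of 1151 (205 to 45571, counting error only). *drm* and *sob*, the members tested for this, rose with the stage in each species in which they were measured (adjusted p = 7.3e-08 or less in 5 of 5 tests by limma). Changes with stage were common, with 84.8% of genes tested called in *sim*, 85.2% in *mau* and 78.6% in *sec*. No stage 2 test held a member, since none reached the minimum level.

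**Figure D1:**
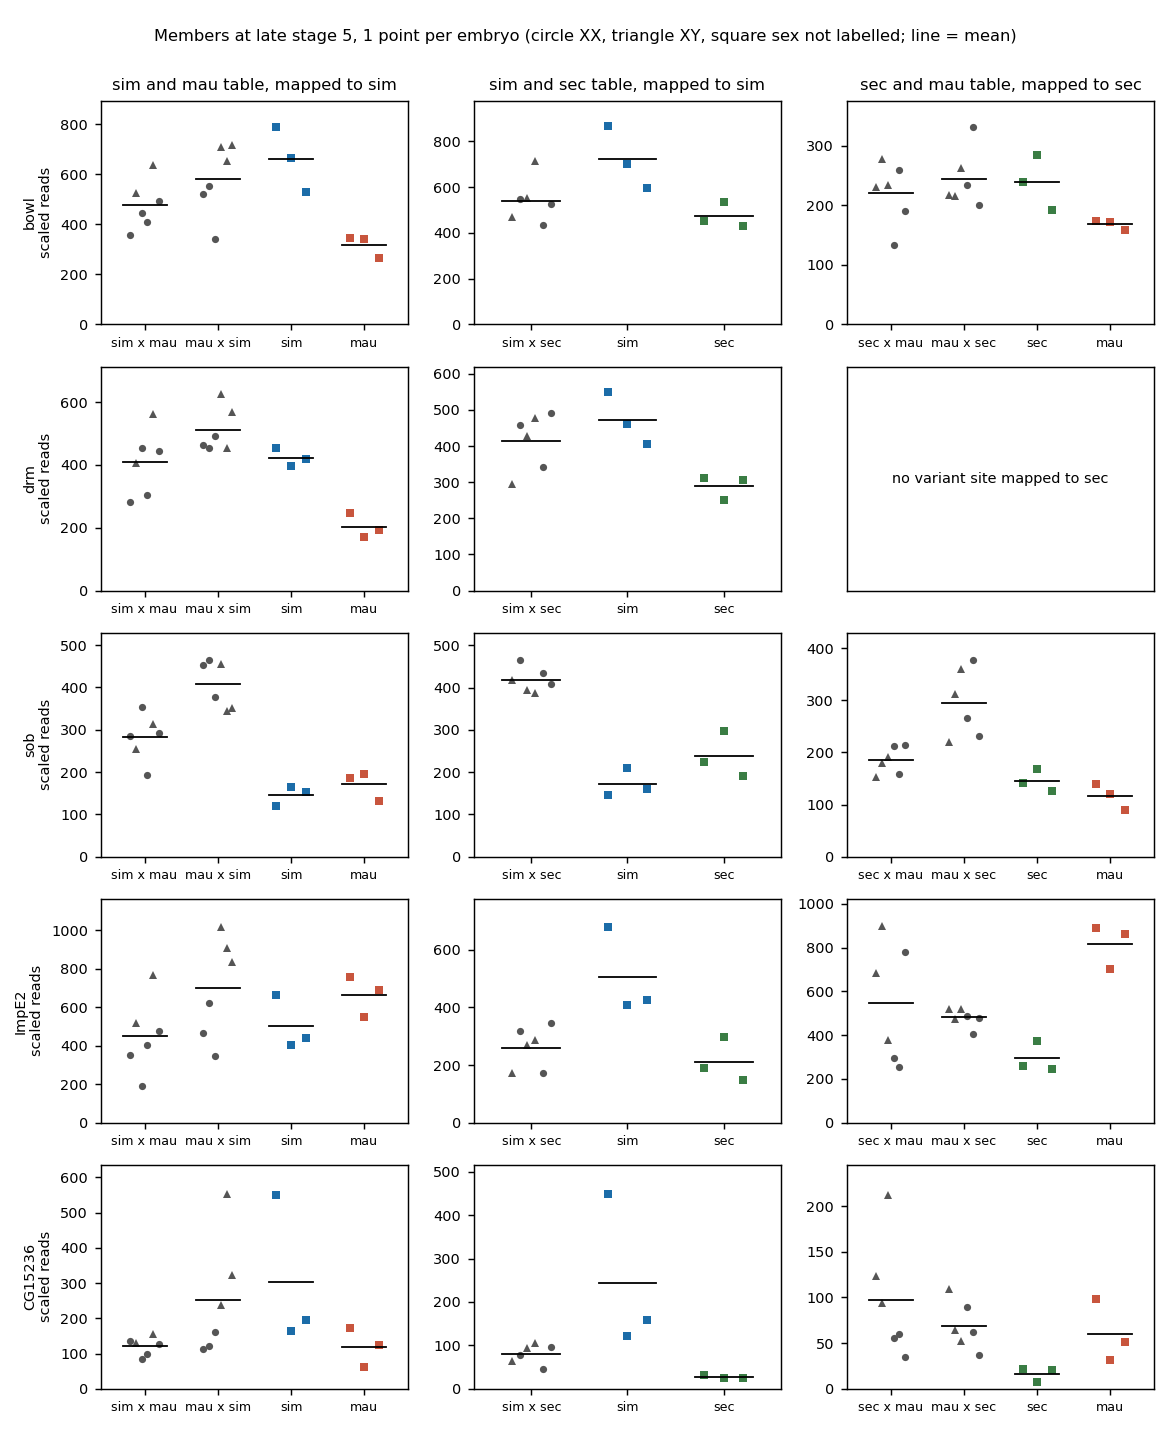
Scaled reads of the 5 genes in each late stage 5 embryo (y axis from 0, both alleles summed), with 1 point per embryo, hybrids left of the species embryos and a line at each mean, in columns by table. *sob* in *mau* x *sim* embryos, at 344 to 464, lies above all *sim* and *mau* embryos, whose highest value is 196, and *CG15236* in *sec* embryos lies below every other group.

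*bowl* was highest in *sim* and lowest in *mau*, between alleles and between species alike. In *sim* x *mau* embryos its *sim* allele had 261 to 462 (median 312) scaled reads and its *mau* allele 95.4 to 175 (median 145), and in *mau* x *sim* embryos the *sim* allele had 242 to 492 (median 395) and the *mau* allele 99.3 to 231 (median 209). The *sim* allele was the higher one in 6 of 6 embryos of either cross. Embryos of the species had 788, 664 and 530.2 in *sim* and 347, 343 and 264 in *mau*, with no overlap. On the log2 scale the *sim* allele exceeded the *mau* allele by 1.18 ± 0.09 (SE) in *sim* x *mau* and by 1.00 ± 0.09 in *mau* x *sim*, and *sim* embryos exceeded *mau* embryos by 1.04 ± 0.17, folds of 2.27, 2.00 and 2.06.

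Against *sec* the *sim* allele of *bowl* was higher again. *sim* x *sec* embryos had 287 to 442 (median 339) scaled reads from the *sim* allele and 147 to 271 (median 181) from the *sec* allele, with the *sim* allele higher in 6 of 6 embryos. The species embryos had 868, 699.6 and 598 in *sim* and 453, 535 and 429 in *sec*. The log2 difference was 0.88 ± 0.08 between alleles and 0.60 ± 0.17 between species. Between *sec* and *mau* the *sec* allele led in all 12 hybrid embryos, by 0.90 ± 0.10 in *sec* x *mau* and 0.69 ± 0.10 in *mau* x *sec*, and the species embryos had 239, 284 and 192 in *sec* and 173, 172 and 159 in *mau*, a log2 difference of 0.49 ± 0.22. Each pair thus had the same order in species and in hybrids.

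*drm*, whose product frees Bowl from Lines, showed the same order in the 2 pairs in which it could be read. *sim* x *mau* embryos had 165 to 366 (median 259.5) scaled reads from the *sim* allele and 87.3 to 195 (median 164) from the *mau* allele, and *mau* x *sim* embryos had 263 to 408 (median 286) and 153 to 228 (median 205). The *sim* allele led in 6 of 6 embryos of each cross, by 0.75 ± 0.12, adjusted p = 1.3e-04 in *sim* x *mau* and by 0.61 ± 0.12, adjusted p = 7.4e-04 in *mau* x *sim*. The species embryos had 454, 396 and 419 in *sim* and 247, 171 and 193 in *mau*, a 2.10-fold difference (1.07 ± 0.18, adjusted p = 5.2e-05, by limma). In *sim* x *sec* embryos the *sim* allele had 185 to 321 (median 262) and the *sec* allele 109 to 191 (median 172) (0.64 ± 0.08, adjusted p = 3.0e-04), and the species embryos had 549, 459.7 and 406 in *sim* and 311, 249.8 and 307 in *sec* (0.70 ± 0.20, adjusted p = 0.0080).

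*sob* went the other way. The *mau* allele led the *sim* allele in all 12 embryos of *sim* x *mau* and *mau* x *sim*, although by little: the *sim* allele had 91.5 to 167 (median 127) and the *mau* allele 101 to 186 (median 158) scaled reads in *sim* x *mau*, a log2 difference of -0.29 ± 0.09, adjusted p = 0.0089. In *mau* x *sim* the *sim* allele had 146 to 221 (median 177) and the *mau* allele 197 to 278 (median 217) (-0.32 ± 0.09, adjusted p = 0.0053). The species embryos, with 119.9, 166 and 153 in *sim* and 186, 196 and 132 in *mau*, overlapped and did not pass the test (-0.22 ± 0.20, adjusted p = 0.35).

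The *sec* allele of *sob* was the highest of the 3. In *sim* x *sec* embryos the *sim* allele had 123 to 204 (median 138) scaled reads and the *sec* allele 242 to 296 (median 272), with no overlap between the alleles (-0.89 ± 0.13, adjusted p = 5.9e-04). *sim* embryos had 145, 211 and 159 and *sec* embryos 225, 297 and 189.8, a smaller difference in the same direction (-0.46 ± 0.18, adjusted p = 0.040). This last call was weak: it was lost without 9 of the 12 stage 5 embryos taken out in turn, with an adjusted p of 0.14 without *sim* replicate 1, 0.10 without *sim* replicate 3, 0.060 without *sec* replicate 1, 0.17 without *sec* replicate 2 and 0.051 to 0.052 without *sim* x *sec* replicates 1 to 5. Against *mau* the *sec* allele led in all 12 hybrid embryos, by 1.08 ± 0.15, adjusted p = 3.6e-05 in *sec* x *mau* and by 1.35 ± 0.15, adjusted p = 5.6e-06 in *mau* x *sec*. *sec* embryos had 141, 168 and 126 and *mau* embryos 140.3, 120.1 and 90.1 (0.32 ± 0.23, adjusted p = 0.25).

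The share of genes called in these tests was high, so that a call by itself says little. Over all genes tested, 60.7% were called between *sim* and *mau* embryos, 54.8% between *sim* and *sec* and 48.0% between *sec* and *mau*. Between alleles the share was 76.8% in *sim* x *mau*, 77.0% in *mau* x *sim*, 84.1% in *sim* x *sec*, 83.7% in *sec* x *mau* and 75.3% in *mau* x *sec*. Among the genes that were mostly zygotic, meaning that they rose by more than 3 on the log2 scale between the stages, the allele shares were 58.3, 61.0, 67.7, 65.5 and 60.0% in the same order of crosses. *drm* and *sob* together were called in 8 of 8 allele tests and in 3 of 5 species tests.

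*ImpE2* was low in *sec*. In *sim* x *sec* embryos its *sim* allele had 113 to 259.8 (median 207) scaled reads and its *sec* allele 36.9 to 87.6 (median 70.7), with the *sim* allele higher in 6 of 6 embryos and no overlap. The species embryos had 680.0, 407 and 427 in *sim* and 192, 297 and 147 in *sec*. The log2 differences were 1.50 ± 0.13 between alleles and 1.27 ± 0.31 between species. Against *mau* the *sec* allele was lower in all 12 hybrid embryos, at 78.3 to 257 (median 128) against 170.3 to 640.4 (median 402) for the *mau* allele in *sec* x *mau*, and at 93.4 to 147 (median 123) against 314 to 420.5 (median 359.9) in *mau* x *sec*. *sec* embryos had 260.5, 375 and 245 and *mau* embryos 891, 700.4 and 860.1, and the log2 difference was -1.42 ± 0.12, -1.59 ± 0.12 and -1.49 ± 0.33 in the 2 crosses and the species.

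Between *sim* and *mau* there was little difference in *ImpE2* to repeat. *sim* embryos had 664, 406 and 441 scaled reads and *mau* embryos 755, 547 and 692, which overlapped, with a log2 difference of -0.42 ± 0.27. The alleles differed by -0.34 ± 0.17 in *sim* x *mau* and by -0.17 ± 0.17 in *mau* x *sim*, and 1 of the 6 embryos of either cross had the opposite sign. For this pair the choice of *ImpE2* as a gene with a steady allele difference is therefore not borne out by every embryo.

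In the pairs with *sec*, *CG15236* had the widest differences of the 5 genes under the main mapping. In *sim* x *sec* embryos the *sim* allele had 43.0 to 96.8 (median 78.6) scaled reads, whereas the *sec* allele had 1.68 to 10.2 (median 7.04). *sim* embryos had 448, 122 and 159 and *sec* embryos 31.3, 24.4 and 24.8, and the log2 difference was 3.56 ± 0.25 between alleles and 2.90 ± 0.41 between species. The *sec* allele was also below the *mau* allele, at 5.22 to 32.5 (median 9.43) against 30.0 to 192 (median 69.6) in *sec* x *mau* and 4.94 to 20.4 (median 14.6) against 32.1 to 91.3 (median 46.1) in *mau* x *sec*. In the species embryos of that table there were 21.1, 7.39 and 20.7 in *sec* and 98.2, 31.7 and 51.5 in *mau*. The log2 differences were -2.48 ± 0.27, -1.87 ± 0.27 and -1.80 ± 0.46, and the *sec* values rest on few reads, 27 in all over the 3 *sec* embryos.

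The *sim* allele of *CG15236* was above the *mau* allele in all 12 hybrid embryos, at 67.2 to 113 (median 91.7) against 17.2 to 45.2 (median 31.7) scaled reads in *sim* x *mau* and 66.4 to 382 (median 139) against 46.3 to 171 (median 60.0) in *mau* x *sim*. The species embryos had 552, 164 and 197 in *sim* and 173, 60.6 and 125 in *mau*, and overlapped. The *sim* share of all *CG15236* reads in the species embryos was 71.8% with *sim* replicate 1 and 60.1% without it. The log2 difference was 1.49 ± 0.14, 0.94 ± 0.14 and 1.247 ± 0.395 in *sim* x *mau*, *mau* x *sim* and the species.

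**Figure D2:**
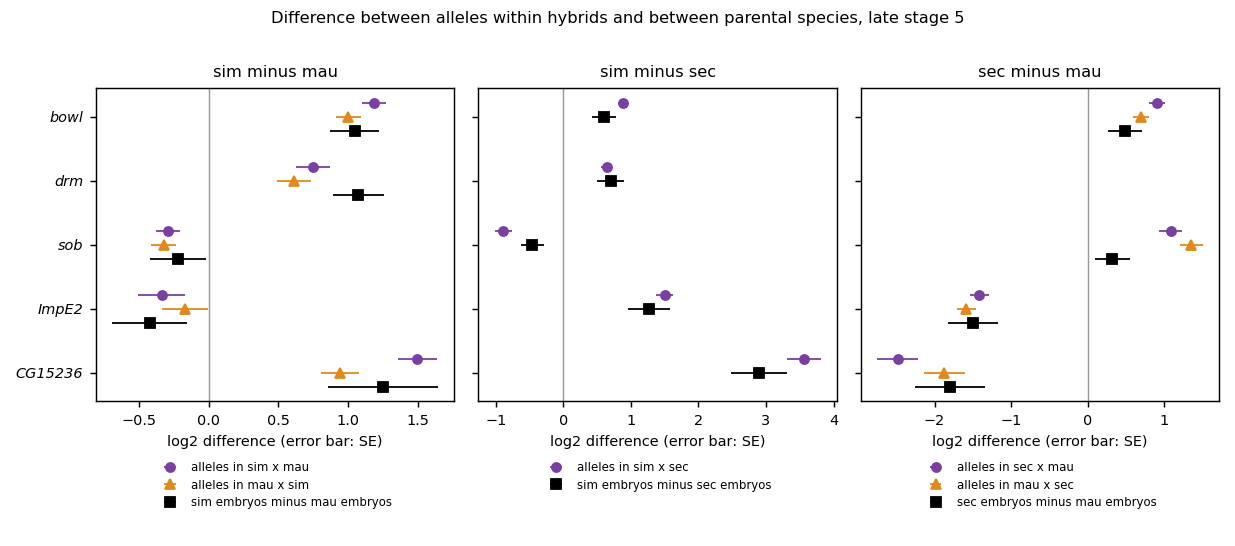
Log2 difference (x axis, error bars SE) between the alleles within hybrids at late stage 5 (circles and triangles, 6 embryos per cross) and between embryos of the species (squares, 3 per species) for each gene and pair of species. The points of all 5 genes lie on 1 side of 0 within each pair in which they were measured, although single embryos of *ImpE2* with *sim* and *mau* did not. For *sob* in *sec* minus *mau* the alleles differ by 1.08 and 1.35 and the species by 0.32.

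Whether the alleles differed as much as the species was tested for *drm* and *sob*. Each fit used 1 spread for the species embryos and for the alleles within hybrid embryos. Its SE can therefore be smaller than that of the species difference alone, and its p-values do not measure the spread between species embryos alone. For *drm* the species difference minus the allele difference was 0.32 ± 0.22, adjusted p = 0.22 for *sim* x *mau*, 0.46 ± 0.19, adjusted p = 0.060 for *mau* x *sim* and 0.06 ± 0.17, adjusted p = 0.79 for *sim* x *sec*, so that no departure passed the threshold. In *mau* x *sim* it passed under TMM scaling (0.51, adjusted p = 0.039) and under DESeq2 size factors (0.52, adjusted p = 0.036), and without *mau* x *sim* replicate 2 (adjusted p = 0.034) or 4 (0.046) or *mau* replicate 1 (0.016). For *sob* the difference was 0.07 ± 0.21, adjusted p = 0.77 for *sim* x *mau*, 0.10 ± 0.22, adjusted p = 0.69 for *mau* x *sim* and 0.43 ± 0.26, adjusted p = 0.17 for *sim* x *sec*. Between *sec* and *mau*, however, the alleles of *sob* differed more than the species did, with -0.76 ± 0.22, adjusted p = 0.011 in *sec* x *mau* and -1.03 ± 0.31, adjusted p = 0.016 in *mau* x *sec*. Over all genes tested the share called was 64.5, 59.4, 62.9, 64.9 and 54.3% for the 5 crosses in the order named, and among the mostly zygotic genes it was 47.7, 38.1, 37.1, 36.6 and 24.1%.

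The genome to which the reads were mapped moved several of these values. Mapped to *mau* in place of *sim*, the share of *bowl* reads from the *sim* allele was 65.5% (63.3 to 67.6%) in *sim* x *mau* and 61.8% (59.7 to 63.8%) in *mau* x *sim*, against 70.3% (68.4 to 72.2%) and 66.7% (64.9 to 68.6%) mapped to *sim* (95% beta intervals, which cover counting error only). The shift was larger with *sec*: the *sim* share in *sim* x *sec* was 54.6% (51.4 to 57.7%) mapped to *sec* and 64.3% (62.3 to 66.3%) mapped to *sim*. On the log2 scale the allele difference there was 0.31 mapped to *sec* and 0.88 mapped to *sim*, and *bowl* had fewer variant sites mapped to *sec*. In all 5 crosses and both mappings the same allele kept at least 54.6% of the *bowl* reads. Among the mostly zygotic genes 72.1 to 83.3%, depending on the cross, also had a larger share for the first allele when mapped to the genome of that allele, by a median of 0.13 to 0.26 on the log2 scale, and 17.4 to 21.2% changed sign.

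**Figure D3:**
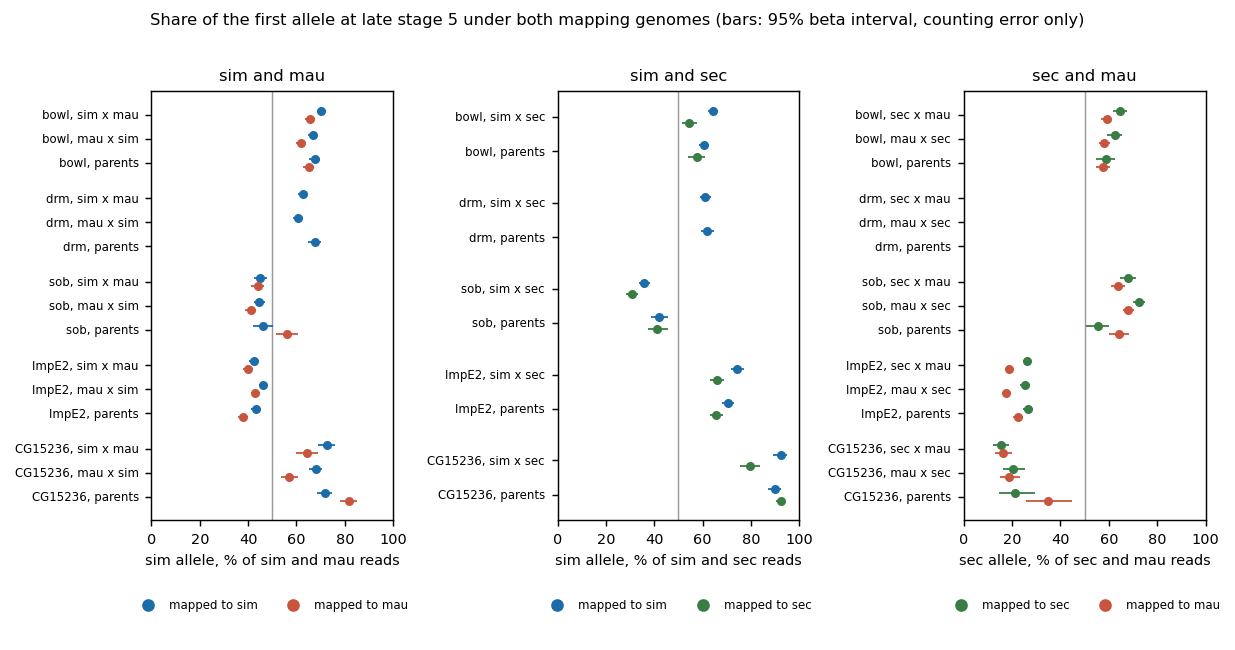
Share of reads from the first allele at late stage 5 (x axis, percent, with 95% beta intervals for counting error) for each gene in each cross and in the species embryos (parents), coloured by the genome mapped to, with a line at equal shares. *bowl* stays right of the line in every row, *sob* in the species embryos of *sim* and *mau* crosses it with the mapping, and *drm* has a single mapping.

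*ImpE2* and *CG15236* also kept their side under both mappings in every cross. The *sec* share of *ImpE2* in *mau* x *sec* was 17.3% mapped to *mau* and 25.3% mapped to *sec*, and the *sim* share in *sim* x *sec* was 66.1% mapped to *sec* and 74.4% mapped to *sim*. For *CG15236* in *mau* x *sim* the *sim* share was 57.1% (53.5 to 60.6%) mapped to *mau* and 67.9% (65.0 to 70.6%) mapped to *sim*, while in the species embryos it was 81.7% (78.2 to 84.9%) and 71.8% (68.6 to 74.9%). Mapped to *mau*, the species difference of *CG15236* (2.07) was thus larger than its allele differences (0.91 and 0.32), whereas mapped to *sim* it lay between them. For *sec* minus *mau* its species difference was -0.73 mapped to *mau* and -1.80 mapped to *sec*. Its allele difference in *sim* x *sec* was 2.07 mapped to *sec* and 3.56 mapped to *sim*, and that of *ImpE2* was 0.93 mapped to *sec* and 1.50 mapped to *sim*.

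*sob* was the member whose species difference changed direction with the mapping. In the hybrids the *sim* share stayed below 49%, at 43.9% and 41.0% mapped to *mau* against 45.0% and 44.6% mapped to *sim* in *sim* x *mau* and *mau* x *sim*. In the species embryos the direction turned, with a *sim* share of 56.1% (51.7 to 60.5%) mapped to *mau* and 46.0% (42.0 to 50.1%) mapped to *sim*. Accordingly, the species difference of *sob* minus its allele difference passed the test mapped to *mau* (0.71, adjusted p = 0.015 in *sim* x *mau*, and 0.91, adjusted p = 0.0072 in *mau* x *sim*), but not mapped to *sim*. For *sec* with *mau* the reverse held, since mapped to *mau* the difference was 0.03 (adjusted p = 0.93) in *sec* x *mau* and -0.22 (adjusted p = 0.62) in *mau* x *sec*. The calls on *sob* in the preceding test thus hold under 1 mapping genome each. *odd*, which lies between *sob* and *bowl*, changed the sign of its allele difference with the mapping in each of the 5 crosses, for example 0.27 mapped to *sim* and -0.85 mapped to *mau* in *sim* x *mau*.

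Reciprocal crosses carry the same autosomes but differ in the mother, and so in the transcripts left by her, and their XY embryos differ also in the species of the X chromosome. The log2 ratio of *sim* to *mau* reads in *sim* x *mau* minus that in *mau* x *sim* was 0.14 ± 0.17, adjusted p = 0.48 for *drm* and 0.03 ± 0.12, adjusted p = 0.83 for *sob*. For *sec* x *mau* minus *mau* x *sec* it was -0.27 ± 0.22, adjusted p = 0.27 for *sob*. The picked genes, whose likeness over crosses was part of their choice, are given without a test. Their values were 0.18 ± 0.12 for *bowl*, -0.17 ± 0.24 for *ImpE2* and 0.55 ± 0.19 for *CG15236* with *sim* and *mau*, and 0.21 ± 0.15, 0.17 ± 0.17 and -0.61 ± 0.38 with *sec* and *mau*.

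Of all genes tested 79.5% and 78.9% were called in these 2 reciprocal tests, with median differences of 2.16 and 2.70 toward the allele of the mother. Among the mostly zygotic genes 36.5% and 34.8% were called, with medians of 0.22 and 0.21. Of *drm* and *sob*, 0 of 2 tests and 0 of 1 test were called by limma, with no unadjusted p under 0.05.

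**Figure D4:**
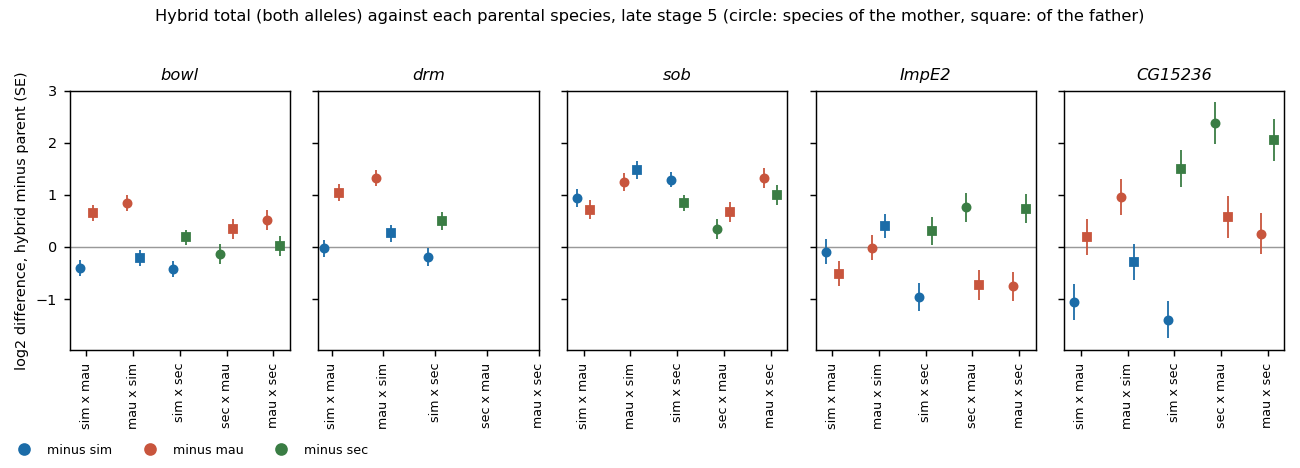
Log2 difference (y axis, error bars SE) of the sum of both alleles in 6 hybrid embryos minus 3 embryos of a parental species at late stage 5, for each gene and cross, where circles mark the species of the mother and squares that of the father. *sob* lies above 0 against both species in all 5 crosses, although in *sec* x *mau* minus *sec* (0.35) it missed the threshold.

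The sum of both alleles in hybrids was then compared with each parental species. For *bowl*, *ImpE2* and *CG15236* this comparison uses the same species and allele values by which they were picked. Their adjusted p-values here are therefore a description, and only those of *drm* and *sob* stand apart from the choice. *sob* was above both in 4 of 5 crosses. In *mau* x *sim* embryos *sob* had 344, 415 and 464 scaled reads (lowest, median and highest), more than in any *sim* (119.9, 166 and 153) or *mau* embryo (186, 196 and 132), and was 2.78-fold above *sim* (1.47 ± 0.17, adjusted p = 6.6e-07) and 2.39-fold above *mau* (1.254 ± 0.173, adjusted p = 4.1e-06). In *sim* x *mau*, with 193, 289 and 353, it was above *sim* by 0.94 ± 0.18, adjusted p = 3.2e-04 and above *mau* by 0.72 ± 0.18, adjusted p = 0.0014. With 386, 413 and 466 in *sim* x *sec*, all 6 embryos were above the highest *sim* or *sec* embryo, 2.45-fold (adjusted p = 1.5e-05) against *sim* and by 0.84 ± 0.15 on the log2 scale (adjusted p = 3.8e-04) against *sec*.

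With *sec* and *mau* the excess of *sob* was clear in 1 direction of the cross. *mau* x *sec* embryos had 219.5, 289 and 376 scaled reads and were above *sec* by 1.00 ± 0.19, adjusted p = 3.0e-04 and above *mau* by 1.32 ± 0.19, adjusted p = 1.6e-05. *sec* x *mau* embryos, with 153, 185 and 215, were above *mau* (0.67 ± 0.19, adjusted p = 0.0059) but not past the threshold against *sec* (0.35 ± 0.19, adjusted p = 0.18), and the call against *mau* was lost without *mau* replicate 3 (adjusted p = 0.058). All other calls of *sob* in this comparison held in each alternative tried, both mappings included. *odd*, its neighbour, was above both parental species in 5 of 5 crosses, by 0.38 to 1.84 on the log2 scale, although the smallest of these were lost without single embryos, as in *sim* x *sec* minus *sim* (adjusted p = 0.088 without *sim* replicate 1 and 0.061 without *sim* replicate 3) and in *sec* x *mau* minus *sec* (5 embryos, adjusted p up to 0.37).

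Markers moved with the same contrast. The 7 markers of gastrulation and later stages that were measured summed to 3712 to 4606 scaled reads in *mau* x *sim* and 3096 to 3431 in *sim* x *mau*, against 2615 to 3207 in *sim* and 2223 to 3309.9 in *mau*. Not all of them rose with the stage. On average 5 of 7 were higher at stage 5 than at stage 2 here and in the *sim* and *sec* table, and 5 of 8 in the *sec* and *mau* table. The 5 pole cell markers measured in that table summed to 1553 to 2187 in *mau* x *sim* and 1620.1 to 1966 in *sim* x *mau*, against 2687 to 3038 in *sim* and 2581 to 2988 in *mau*. Most genes of that list are also in the list of maternal markers. Its median sum in this table was 4979 at stage 2 and 1991 at stage 5, with 1 of 5 genes higher on average at stage 5. The sum thus cannot tell pole cells from maternal RNA that was left. In the *sec* and *mau* table the sum of the 8 gastrulation markers was 2091 to 3475 in *sec* x *mau* and 2454 to 5100.2 in *mau* x *sec*, against 1854 to 2481 in *sec* and 2113 to 3333 in *mau*. In the *sim* and *sec* table the gastrulation sum was 2850 to 4097 in *sim* x *sec*, against 3063 to 3758 in *sim* and 2175 to 2882 in *sec*, and the pole cell sum 1802 to 2087, against 2429 to 2766 in *sim* and 2088 to 2435 in *sec*. The *mau* x *sim* embryos were all above the species embryos in the gastrulation sum, while the other crosses overlapped them, and *sim* x *mau*, *mau* x *sim* and *sim* x *sec* embryos were all below the species embryos in the pole cell sum. The early zygotic sum of *mau* x *sim*, given above, was also higher in every embryo than in *sim* and *mau*. It was 18888 to 21746 in *sim* x *sec*, against 16943 to 20480 in *sim* and 17859 to 20759 in *sec*, and 19793 to 24798 in *sec* x *mau* and 18508 to 21974 in *mau* x *sec*, against 16798 to 20574 in *sec* and 16301 to 17237 in *mau*. The part of these markers in the hybrid values of *sob* and the other members was not tested.

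*bowl* totals in hybrids passed the test above *mau* in 3 of 4 crosses, and *sec* x *mau* minus *mau* was 0.35 ± 0.19, adjusted p = 0.12. *bowl* in *sim* x *mau* (356, 469 and 637) was above *mau* by 0.65 ± 0.15, adjusted p = 0.0010 and below *sim* by an amount that barely passed (-0.40 ± 0.15, adjusted p = 0.047). That call was lost in 11 of 25 alternatives, among them without *sim* replicate 1 (adjusted p = 0.24). In *mau* x *sim* (341, 604 and 718) *bowl* was above *mau* (0.84 ± 0.15, adjusted p = 9.1e-05). For *sim* x *sec* (434, 538 and 713) it was below *sim* (-0.42 ± 0.15, adjusted p = 0.041), a call lost in 10 of 19 alternatives (adjusted p = 0.21 without *sim* replicate 1, and -0.07 with an adjusted p of 0.82 mapped to *sec*), and in *mau* x *sec* (201, 225 and 332) above *mau* (0.51 ± 0.19, adjusted p = 0.030), lost in 6 of 25 (adjusted p = 0.18 mapped to *mau*).

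*drm* was higher in hybrids than in *mau* and *sec*, and no difference from *sim* passed the test. It was above *mau* in *sim* x *mau* (282, 424 and 561) by 1.04 ± 0.16, adjusted p = 1.2e-05 and in *mau* x *sim* (453, 479 and 625) by 1.33 ± 0.16, adjusted p = 6.2e-07, and above *sec* in *sim* x *sec* (294, 443 and 491) by 0.50 ± 0.17, adjusted p = 0.021, which did not hold without *sec* replicate 2 (adjusted p = 0.098). Its differences from *sim* were -0.02 ± 0.16, adjusted p = 0.91, 0.26 ± 0.16, adjusted p = 0.17 and -0.20 ± 0.17, adjusted p = 0.39 in the same crosses.

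*ImpE2* in crosses of *sec* with *mau* lay between the parental species. *ImpE2* in *sim* x *sec* (171, 277 and 347) was below *sim* with a log2 difference of -0.96 ± 0.27, adjusted p = 0.012, which was lost without *sim* replicate 1 (adjusted p = 0.074), and against *sec*, whose embryos these overlapped, it was 0.30 ± 0.27, adjusted p = 0.35. In *sec* x *mau* (256, 529.8 and 898) it was above *sec* (0.76 ± 0.28, adjusted p = 0.042) and below *mau* (-0.73 ± 0.28, adjusted p = 0.030), and in *mau* x *sec* (408, 483 and 520.2) likewise (0.73 ± 0.28, adjusted p = 0.036, and -0.76 ± 0.28, adjusted p = 0.028). These 4 calls were lost in 6, 8, 7 and 3 of 25 alternatives, with adjusted p-values up to 0.16, 0.12, 0.14 and 0.092. *CG15236* was above *sec* in *sim* x *sec* (1.51 ± 0.36, adjusted p = 0.0027), *sec* x *mau* (2.38 ± 0.40, adjusted p = 2.0e-04) and *mau* x *sec* (2.06 ± 0.40, adjusted p = 2.8e-04), which held in each alternative.

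*CG15236* was below *sim* in *sim* x *sec* (-1.39 ± 0.36, adjusted p = 0.0071) and in *sim* x *mau* (-1.05 ± 0.35, adjusted p = 0.021), and above *mau* in *mau* x *sim* (0.96 ± 0.34, adjusted p = 0.022). The call in *sim* x *mau* rested on *sim* replicate 1, with 552 scaled reads against 164 and 197 in the other *sim* embryos: without it the difference was -0.52 (adjusted p = 0.22), and without *sim* x *mau* replicate 2 the adjusted p was 0.059. The call in *mau* x *sim* was lost without *mau* replicate 2 (0.22) or *mau* x *sim* replicate 5 (0.056). In all, members were called in 3 of 5 tests of *sim* x *mau* minus *sim* and 3 of 5 minus *mau*, in 1 and 4 of 5 for *mau* x *sim* minus *sim* and minus *mau*, in 4 and 3 of 5 for *sim* x *sec* minus *sim* and minus *sec*, in 2 and 2 of 4 for *sec* x *mau* minus *sec* and minus *mau*, and in 3 and 3 of 4 for *mau* x *sec* minus *sec* and minus *mau*. Over all genes tested the called shares in the same order were 40.8, 67.8, 57.4, 58.9, 39.7, 56.7, 36.7, 64.0, 52.5 and 56.4%. The member counts include the picked genes, whose values were part of their choice, and are a description only.

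The total also differed between reciprocal crosses for some members, although both carry the same autosomal alleles. *sob* was lower when the *sim* or the *sec* parent was the mother. *sim* x *mau* embryos were below *mau* x *sim* embryos with a log2 difference of -0.54 ± 0.15, adjusted p = 0.0048, and *sec* x *mau* below *mau* x *sec* with -0.65 ± 0.16, adjusted p = 0.0032, and both held in each of 25 alternatives. *CG15236* (-0.76 ± 0.29, adjusted p = 0.034) and *ImpE2* (-0.50 ± 0.20, adjusted p = 0.039) were lower in *sim* x *mau* than in *mau* x *sim*, and each call was lost in 7 of 25 alternatives, 6 of them with 1 hybrid embryo left out (adjusted p up to 0.11 and 0.21, both without *sim* x *mau* replicate 2). *bowl* and *drm* did not pass (-0.19 ± 0.13, adjusted p = 0.22, and -0.28 ± 0.13, adjusted p = 0.083). Between *sec* x *mau* and *mau* x *sec*, *bowl*, *ImpE2* and *CG15236* differed by -0.16, 0.03 and 0.32, with adjusted p-values of 0.47, 0.95 and 0.48. The 3 of 5 and 1 of 4 members called stand beside 49.8% and 36.8% of all genes tested.

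In 1 cross the sexes differed as well. In *mau* x *sim* the 3 XX embryos had 348, 466 and 622 scaled reads of *ImpE2*, and the 3 XY embryos 835, 909 and 1016, with no overlap. For *CG15236* the XX embryos had 113, 121 and 161 and the XY embryos 237, 323 and 554, and for *bowl* the XX embryos had 341, 520.1 and 554 and the XY embryos 653, 709 and 718. XX minus XY was -0.98 ± 0.27, adjusted p = 0.047 for *ImpE2*, -1.42 ± 0.40, adjusted p = 0.0495 for *CG15236* and -0.59 ± 0.17, adjusted p = 0.070 for *bowl*, so that 2 of 5 members were called where 3.9% of all genes were. Both calls were marginal. They were lost in 14 (*ImpE2*) and 16 (*CG15236*) of 25 alternatives, 10 and 13 of them with 1 embryo left out, with adjusted p-values up to 0.21 without *mau* x *sim* replicate 3 and 0.24 without *mau* x *sim* replicate 5.

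The same sign was seen in *sim* x *mau* and *sec* x *mau* for these genes, without passing the test. XX minus XY was -0.90 ± 0.28, adjusted p = 0.12 in *sim* x *mau* and -0.66 ± 0.33, adjusted p = 0.58 in *sec* x *mau* for *ImpE2*, and -0.37 ± 0.42, adjusted p = 0.75 and -1.45 ± 0.46, adjusted p = 0.36 for *CG15236*. In *sim* x *sec* it was 0.17 ± 0.31, adjusted p = 0.91 for *ImpE2*, of the opposite sign, -0.29 ± 0.41, adjusted p = 0.88 for *CG15236* and -0.19 ± 0.17, adjusted p = 0.81 for *bowl*. In *mau* x *sec* it was -0.14 ± 0.33 for *ImpE2*, -0.28 ± 0.46 for *CG15236* and 0.12 ± 0.22 for *bowl*, with an adjusted p of 1 for each. The shares of genes called were 1.62% in *sim* x *mau*, 0.299% in *sim* x *sec*, 0.219% in *sec* x *mau* and 0.0% in *mau* x *sec*, where limma called 0 of 5923 genes and 136 had an unadjusted p under 0.05. Whether the sexes differed more in *mau* x *sim* than elsewhere was not tested. In *mau* x *sim* the pole cell markers, which overlap the maternal markers, also summed to less in XX (1553 to 1815) than in XY embryos (2015 to 2187). The gastrulation markers summed to 3712 to 4402 in XX and 4193 to 4606 in XY embryos. The part of either sum in the result was not tested.

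**Figure D5:**
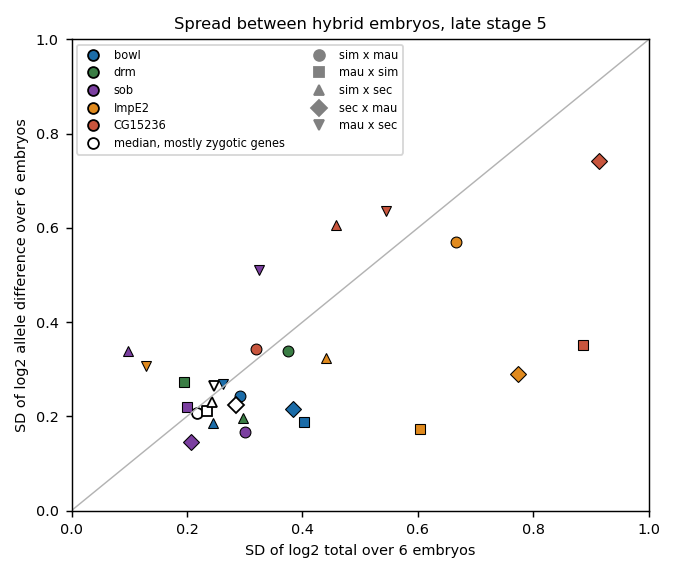
SD over 6 hybrid embryos of the log2 difference between alleles (y axis) against the SD of the log2 total (x axis) at late stage 5, 1 point per gene (colour) and cross (shape), with the median of the mostly zygotic genes in white and a line of equal SDs. *ImpE2* in *mau* x *sim* and *sec* x *mau* and *CG15236* in *mau* x *sim* lie far right of the line. Their totals vary by 0.60 to 0.89 and their allele differences by 0.17 to 0.35. *CG15236* in *sec* x *mau* lies nearer to the line, at 0.91 for the total and 0.74 for the allele difference.

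How much the embryos of a cross varied among themselves differed by gene and by measure. The SD of the log2 total of *ImpE2* over 6 embryos was 0.60 in *mau* x *sim* and 0.77 in *sec* x *mau*, while the SD of its log2 allele difference was 0.17 and 0.29. For *CG15236* these were 0.89 and 0.91 for the total, and 0.35 and 0.74 for the allele difference. The mostly zygotic genes with a mean total of at least 50 had median SDs of 0.22 to 0.28 for the total and 0.21 to 0.27 for the allele difference, depending on the cross. In *sim* x *mau*, in contrast, the SDs of *ImpE2* were 0.67 for the total and 0.57 for the allele difference, in *sim* x *sec* 0.44 and 0.32, and in *mau* x *sec* 0.13 and 0.31. *sob* was the opposite case in *sim* x *sec*, with an SD of 0.10 for the total and 0.34 for the allele difference, and *bowl* and *drm* lay between 0.19 and 0.40 in both measures. These SDs are descriptions over 6 embryos each, without a test.

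The other genes of the *odd-skipped* family and of the Lines and Bowl pathway were counted from a list of 18, of which 15 or 16 were tested. Between *sim* and *mau* embryos 6 of 15 were higher and 0 lower (*fkh*, *hh*, *lin*, *N*, *odd* and *ptc*), with a median log2 difference of 0.32 beside -0.06 over all genes. Between *sim* and *sec* 11 of 16 were higher and 0 lower (median 0.68, all genes 0.03), and between *sec* and *mau* 2 of 15 were higher (*N* and *odd*) and 1 lower (*Dl*), with a median of 0.06 (all genes -0.04). Over all genes tested 60.7, 54.8 and 48.0% were called in either direction in these 3 pairs. *lin*, which encodes Lines, was thus called higher in *sim* than in either other species with reads mapped to *sim*. Between alleles *lin* was called higher from *sim* in *sim* x *sec*, but was not among the genes called in *sim* x *mau* or *mau* x *sim*. With the stage it fell in *mau* and *sec*. The counts of this list and of the ecdysone list below rest on the main mapping and were not repeated under the other. *odd*, a pair-rule segmentation gene, passed in all 3 pairs (0.86, 0.54 and 0.55 for *sim* minus *mau*, *sim* minus *sec* and *sec* minus *mau*), but mapped to the other genome it was at -0.20, 0.07 and -0.22 and passed in none. *N*, which encodes the receptor Notch, differed by 1.31, 0.71 and 0.71, and its calls were lost without *sec* replicate 3 (adjusted p = 0.062) or *sim* replicate 2 (0.053) for *sim* minus *sec*, and without *sec* replicate 2 (0.078) for *sec* minus *mau*. *N* lies on the X chromosome, so XY hybrid embryos carry only the allele of the mother. Its allele values pooled XX and XY embryos and do not compare both alleles within each embryo. They were 2.87 ± 1.91 in *sim* x *mau* and -4.95 ± 1.91 in *mau* x *sim*, and 4.22 ± 1.56 in *sec* x *mau* and -3.32 ± 1.56 in *mau* x *sec*. The sex of the species embryos was not labelled, and its part in the species values of *N* was not tested.

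Of 15 ecdysone-inducible and early ecdysone response genes 8 or 9 were tested. Between *sim* and *mau* 1 of 8 was higher (*usp*, which encodes a partner of the ecdysone receptor) and 4 were lower (*EcR*, *ftz-f1*, *ImpE3* and *ImpL1*), with a median of -0.77. Between *sim* and *sec* 0 of 9 were higher and 5 lower (median -1.70), and between *sec* and *mau* 0 of 8 were higher and 1 lower (median 0.16), beside the same 60.7, 54.8 and 48.0% of all genes called in either direction. *ImpL1* was the lowest in *sim*, with log2 differences of -5.66, -3.56 and -2.83, the second of which missed the threshold mapped to *sec* (-1.87, adjusted p = 0.074). Between the stages 6 of the genes in this list fell in each species, among them *EcR*, *usp* and *ftz-f1*. *ImpL1* and *ImpL2* rose in each species, as *ImpE2* did, and *ImpE3* rose in *mau* and *sec*. In the pathway list of *bowl* 13 of 15 genes rose with the stage in *sim*, and 12 of 15 in *mau* and in *sec*. Over all genes tested 3101 of 6160 were called higher at stage 5 in *sim*, 3321 of 6435 in *mau* and 2737 of 5788 in *sec*.

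Among the 5469 genes measured at the minimum level in all 3 tables, those most like each member across species and crosses were looked up. As the best of so many genes, they cannot be set against the few values between members. Over 16 values (the mean log2 level of each species and of each allele in each cross at stage 5, centred within a table), the genes with the highest Pearson correlation to *bowl* were *CG10663* (0.979), *wun2* (0.967) and *Tmhs* (0.965). For *ImpE2* they were *ry* (0.975), *CG14921* (0.956) and *Ack-like* (0.956), for *CG15236* *Pex13* (0.929), *CG16758* (0.921) and *wts* (0.906), and for *sob* *cmpy* (0.834), *Alg10* (0.834) and *DnaJ-H* (0.801). Between members the value was 0.80 for *ImpE2* with *CG15236*, 0.13 for *bowl* with *sob* and -0.62 for *sob* with *CG15236*. The 16 values share libraries and species embryos, so these are descriptions only. *drm*, without values for *sec* and *mau*, could not be entered.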

How the data were processed

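RNA was extracted from 63 single embryos, and poly(A)-selected libraries were sequenced. According to the methods and the submitters' processing notes, reads were trimmed with cutadapt 1.7.1 and aligned with TopHat2 2.0.13 to each genome of a species pair, and variant sites were called with GATK. The deposited values are a signal per gene and allele: for every gene the authors added up the allele's reads at variant sites and applied an upper quantile scaling within a species pair, and they also deposited a count of the variant sites with reads. Whether a read over several sites was counted once is not given in the sources used here. All values were whole multiples of a step per library (tolerance 0.01 reads), from which reads were recovered for depths, shares and the count test.

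Here log2(value + 1) was tested with limma 3.58.1 in R 4.3.3, with a mean of at least 5 and Benjamini-Hochberg adjustment over all genes kept. The files hold scaled signal, so the count test with edgeR 4.0.16 was an alternative. Others were the other mapping genome, a pseudocount of 5, no minimum or 20, TMM, DESeq2 1.42.0 size factors, a replicate block and leaving out each embryo. Depth was 2146524 to 7044646 reads per embryo. Intervals cover counting error only. Tests were tried on simulated data. The members and gene lists were chosen with earlier results of these data known. Named genes are the members, the genes most like them, and the list genes called in every pair of species (*N*, *odd* and *ImpL1*), with other list genes named only within counts, after their values were seen. The authors' groups and sexes come from the labels. The p-values measure the spread between single embryos, except for the species minus allele difference, whose spread also draws on the alleles within hybrid embryos. Stage 2 tests between species and between alleles held no member, since none reached the minimum, and are not described. The reciprocal allele ratio of the 3 picked genes, planned as a test, is given without one.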

Additional observations from a re-analysis of the deposited data

Results flagged for a closer look

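The log2 total of *ImpE2* in *mau* x *sec* replicate 5 (XX) was 8.674, and the nearest of the other 5 embryos was at 8.898. The gap was 0.6364 of the range of the 6 embryos, above Dixon's critical value for groups of that size. It was the 1 such value in 46 groups of embryos looked at, and chance flags about 1 in 20 groups.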

How the results depend on the processing

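Of 2939 log2 differences recomputed under an alternative, 2749 were counted as unchanged. For tested differences this means the same direction and side of the threshold. For the untested ones of the picked genes it means the same direction and a move smaller than the residual SD of the gene. Mapped to the other genome, *odd* reversed between *sim* and *mau* (-0.20) and *sec* and *mau* embryos (-0.22), and between alleles in *sim* x *mau* (-0.85), *mau* x *sim* (-0.81), *sim* x *sec* (-0.60), *sec* x *mau* (-0.34) and *mau* x *sec* (-0.12), *sob* reversed between *sim* and *mau* embryos (0.37), and the species minus allele difference of *sob* in *sec* x *mau* was 0.027. That of *drm* in *sim* x *sec* was -0.015 under DESeq2 size factors. The cause was not tested. Members called numbered 2 for XX against XY, but 0 mapped to the other genome, 0 with no minimum, 1 under TMM and 0 under DESeq2 size factors. Mapped to the other genome they numbered 2 (otherwise 4) for reciprocal totals, 3 (otherwise 5) for stage and 5 (otherwise 8) for alleles, where *drm* has no variant sites.

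With 1 embryo left out, genes called between XX and XY ranged from 158 to 614 (380 with all), members from 0 to 3, and members called in reciprocal totals from 2 to 5. *ImpE2* in *sec* x *mau* minus *mau* x *sec* ranged from -0.23 to 0.20, and the reciprocal ratio of *sob* for *sim* and *mau* from -0.039 to 0.078. The species minus allele difference ranged from -0.11 to 0.21 (*sob*, *sim* x *mau*), -0.075 to 0.24 (*sob*, *mau* x *sim*) and -0.059 to 0.16 (*drm*, *sim* x *sec*). In *sec* x *mau* 92.3% of XX against XY calls were higher in XX, and 81.2% by edgeR. The median stage change of all genes was 0.44 to 0.50 as deposited and 0.08 to 0.25 under other scalings, far below the change of the members.

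With the replicate number as a block, 9096 genes were called between species (10163 without) and 2 of the members' tests (3 without), *sob* in *sim* minus *sec* being lost (adjusted p = 0.077), and 15636 genes with stage (15258 without), with 5 members' tests either way. The deviations of same-numbered embryos correlated at 0.116, 0.246 and 0.55 between the stages of *sec*, and at 0.511 for replicate 1 of *sec* and *mau* at stage 2. The other correlations lay between -0.214 and 0.193. Embryos of different groups share only a number. The alternatives planned for stage 2 were not run, as no member reached the minimum. Few reads limit *CG15236* in *sec*, and no mapping check was possible for *drm*.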
